A study of Homo sapiens with 24 samples.

Results

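The 10 genes described here are transcripts that report on the output of the RAS-RAF-MEK-ERK (MAPK) pathway in melanoma: DUSP4, DUSP6, SPRY2, SPRY4, SPRED1, ETV4, ETV5, PHLDA1, CCND1 and EPHA2. They were chosen by symbol, all 10 were found among the 25268 genes of the deposited table, and all 10 passed the filter on low values in every fit. The RNA came from A375 cells, a long-established line from a human melanoma that carries an activating BRAF mutation, in 24 libraries of rRNA-depleted total RNA that form 8 groups of 3. Cells received 25 µM A771726, 25 µM A771726 with nucleotides, nucleotides alone, or DMSO, the solvent, each for 24 h or for 48 h. A771726 is the active metabolite of leflunomide and inhibits DHODH, an enzyme of de novo pyrimidine synthesis. The identity and dose of the nucleotides were not stated in the labels. A single line was used, and whether a group's 3 libraries were separate cultures is not said, so each p-value reflects library-to-library spread that may be technical.

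In BRAF-mutant melanoma the mutant kinase signals to MEK and ERK without a need for growth factors, and ERK switches on a small set of genes. Several of these encode negative feedback regulators: DUSP4 and DUSP6 are phosphatases that remove the activating phosphates from ERK, and the Sprouty proteins SPRY2 and SPRY4 and the related SPRED1 restrain signalling at the level of RAS and RAF. ETV4 and ETV5 are ETS family transcription factors, CCND1 encodes cyclin D1, which drives entry into the cell cycle through CDK4 and CDK6, PHLDA1 encodes a pleckstrin homology-like domain protein, and EPHA2 encodes an ephrin receptor tyrosine kinase. The summed level of these transcripts is widely read as a measure of pathway activity, since it falls when MEK or BRAF is inhibited.

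The promoter sequences of 4 members are shown as pairs that were alike in some libraries only. On the deposited scale DUSP6 and SPRY2 were both lower under A771726 at 24 h, and SPRY4 and PHLDA1 were high in the same single libraries. With nucleotides added, DUSP6 and SPRY2 averaged 39.5 and 69.6 FPKM, against 46.7 and 63.9 FPKM with DMSO at 24 h. CCND1 was also lower, and ETV5 also high, in these libraries, but neither has a window. A part of the promoters in these values was not tested. Each window runs from 250 bases before to 50 bases after the annotated start, in the direction of transcription, from RefSeq with the GRCh38.p14 build, and 6 of the 10 members matched the table. The submitters' processing notes name hg19, and no other coordinates are used here. The search covered 4 short motifs on both strands, which are in capitals where found: the ETS core CCGGAA, the AP-1 site TGANTCA, the cyclic AMP response element TGACGTCA, and the CArG box. All 4 genes lie on the minus strand, at chr12:89352452-89352751 for DUSP6, chr13:80341077-80341376 for the most upstream of 3 annotated starts of SPRY2, chr5:142324198-142324497 for SPRY4, and chr12:76031727-76032026 for PHLDA1.
DUSP6: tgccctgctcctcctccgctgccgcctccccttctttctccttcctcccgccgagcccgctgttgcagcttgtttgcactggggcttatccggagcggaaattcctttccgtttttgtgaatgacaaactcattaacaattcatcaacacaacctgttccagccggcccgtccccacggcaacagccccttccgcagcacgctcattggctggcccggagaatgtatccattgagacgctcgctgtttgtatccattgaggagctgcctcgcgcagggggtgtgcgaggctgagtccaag
SPRY2: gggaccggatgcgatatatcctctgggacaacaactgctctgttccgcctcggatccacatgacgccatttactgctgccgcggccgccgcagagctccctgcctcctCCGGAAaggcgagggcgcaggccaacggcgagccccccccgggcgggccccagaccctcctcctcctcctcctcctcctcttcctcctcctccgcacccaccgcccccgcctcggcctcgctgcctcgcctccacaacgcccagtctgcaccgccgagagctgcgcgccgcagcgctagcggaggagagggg
SPRY4: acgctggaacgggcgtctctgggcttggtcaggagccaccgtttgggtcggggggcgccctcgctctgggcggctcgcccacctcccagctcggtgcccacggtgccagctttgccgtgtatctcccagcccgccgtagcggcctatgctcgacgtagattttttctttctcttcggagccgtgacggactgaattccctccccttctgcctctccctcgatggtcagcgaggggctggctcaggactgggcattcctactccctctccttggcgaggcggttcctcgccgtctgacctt
PHLDA1: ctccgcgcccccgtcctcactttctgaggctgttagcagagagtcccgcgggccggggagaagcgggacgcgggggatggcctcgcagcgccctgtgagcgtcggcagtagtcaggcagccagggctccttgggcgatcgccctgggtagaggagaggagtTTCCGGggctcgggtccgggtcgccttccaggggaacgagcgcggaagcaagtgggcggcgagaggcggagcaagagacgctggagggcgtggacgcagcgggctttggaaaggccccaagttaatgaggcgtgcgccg
The SPRY2 and PHLDA1 windows shown each hold 1 ETS core, in PHLDA1 on the reverse strand. The windows of the other two annotated starts of SPRY2 hold none of the motifs, and the DUSP6 and SPRY4 windows hold none of the motifs. The ETS core is present in 17.2% of 35116 RefSeq promoter windows of the same length, the AP-1 site in 7.71%, the cyclic AMP response element in 1.85% and the CArG box in 1.29%. EPHA2 has 1 cyclic AMP response element in its window, and SPRED1 has no match.

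Levels are given as deposited, in FPKM, which divides a gene's fragments by the length of its transcript and by the fragments mapped in the library, and without counts the read depth cannot be known. Summed over genes, FPKM came to 459300 to 582700 in the A771726 libraries at 24 h, 573400 to 682500 with A771726 and nucleotides, and 693400 to 773000 in the other 6 libraries of that time. At 48 h, replicates 1 and 2 of A771726 stood apart. Their sums were 231100 and 2284000 FPKM, against 527300 to 722300 in the other 10 libraries of 48 h. Their median Spearman correlations with the other libraries across genes were 0.925 and 0.573, against 0.959 to 0.973 in the other 22. Replicate 2 had 60.8% of its FPKM on the microRNA gene MIR3687 and listed 16198 genes at 0. Results at 48 h under A771726 are therefore given with and without these 2 libraries.

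**Figure D1:**
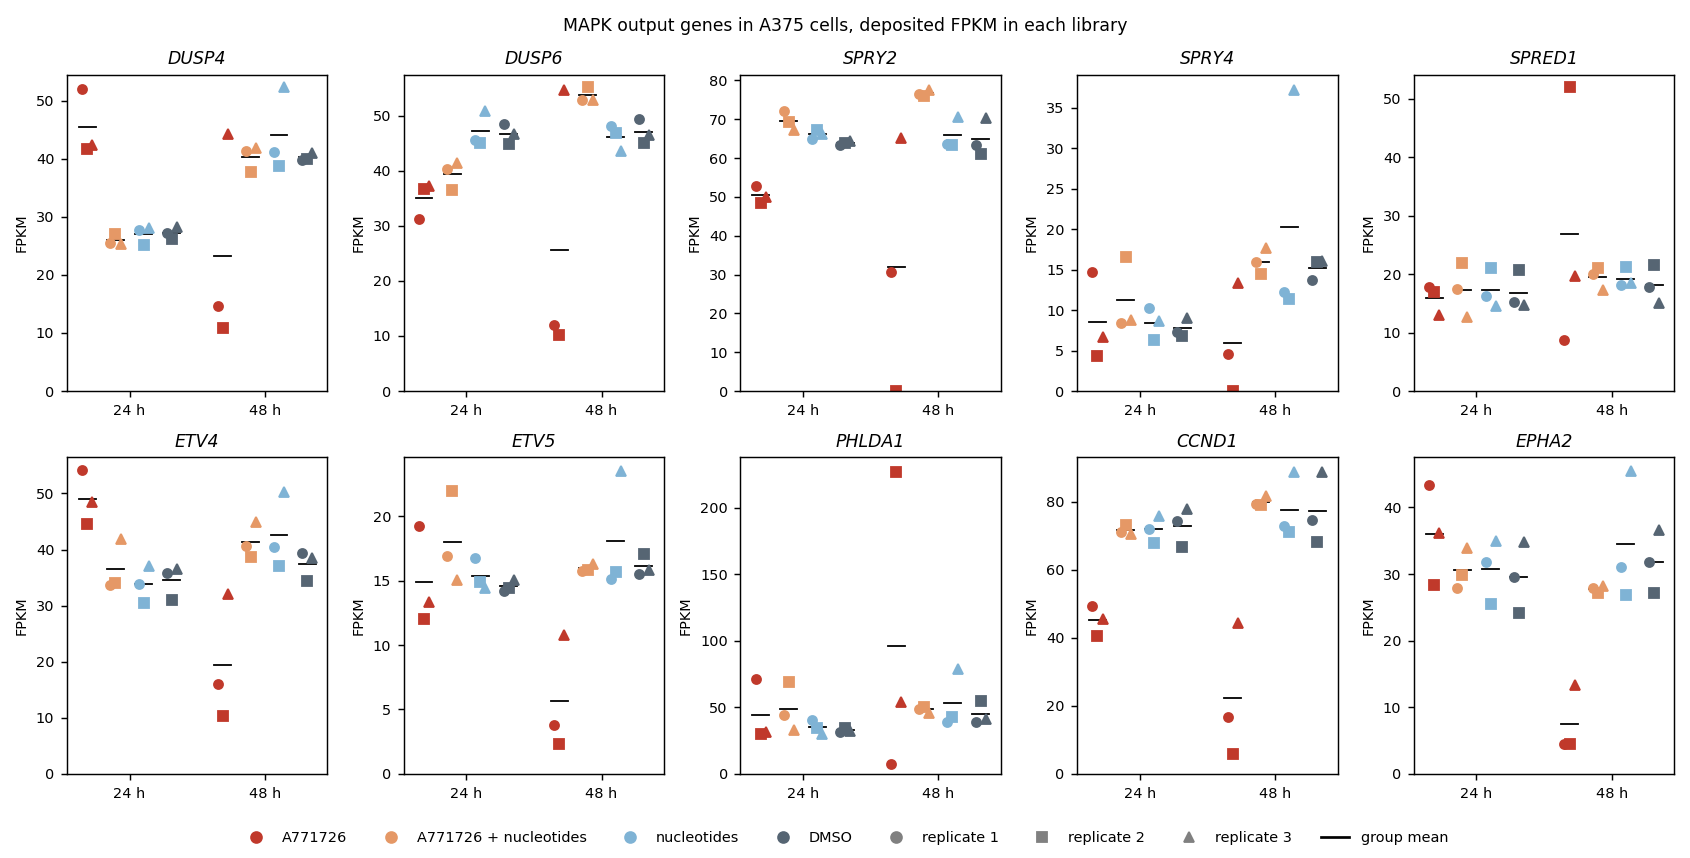
Deposited FPKM of the 10 genes in each library, with 24 h on the left and 48 h on the right of each panel; colours mark the treatment, marker shapes the replicate number, and black bars the mean of 3 libraries. At 24 h the A771726 libraries of DUSP4 and ETV4 lie above, and those of CCND1, SPRY2 and DUSP6 below, the DMSO libraries on the deposited scale, and at 48 h replicates 1 and 2 of A771726 are far from replicate 3 in most panels.

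A771726 was set against DMSO at 24 h to ask how the inhibitor changes these transcripts early. The 10 genes did not move as a block. DUSP4 and ETV4 were higher, CCND1, DUSP6 and SPRY2 were lower, and SPRY4, SPRED1, ETV5, PHLDA1 and EPHA2 did not pass the test. Calls are limma on log2(FPKM + 1), adjusted over all 11471 genes tested at this time by Benjamini-Hochberg, at an adjusted p under 0.05. Of all genes tested, 17.4% were called in this comparison, 9.64% higher and 7.77% lower, against 2 higher and 3 lower of the 10 members. The median log2 fold change of the 10 genes was -0.00, against 0.02 over all genes tested.

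The 2 ERK phosphatases went in opposite directions. DUSP4, which acts on nuclear ERK, had 52.1, 41.8 and 42.4 FPKM in the A771726 libraries, against 27.2, 26.1 and 28.3 FPKM in the DMSO libraries at 24 h. Every A771726 library was above every DMSO library, and the means were 45.4 ± 5.76 and 27.2 ± 1.07 FPKM (SD, n = 3 each). The change was 1.64-fold on the log2(FPKM + 1) scale, a log2 fold change of 0.71 ± 0.10 SE (adjusted p = 0.00104, limma). DUSP6, a cytoplasmic ERK phosphatase, had 31.2, 36.7 and 37.2 FPKM under A771726, against 48.5, 44.9 and 46.6 FPKM with DMSO. Here every A771726 library was below every DMSO library, with a log2 fold change of -0.41 ± 0.10 (adjusted p = 0.0191, limma). The DUSP6 call was lost when replicate 1 or replicate 3 of DMSO was left out, with an adjusted p of up to 0.0830 in limma, and the DUSP4 call was kept in all 12 such fits.

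Among the Sprouty and SPRED genes, SPRY2 fell and the other two did not pass the test. SPRY2 had 52.9, 48.4 and 50.03 FPKM under A771726, against 63.3, 64.0 and 64.4 FPKM with DMSO. The groups did not overlap, and the log2 fold change was -0.34 ± 0.08 (adjusted p = 0.0151, limma). This call was lost when any of the 3 DMSO libraries or replicate 3 of A771726 was left out, with an adjusted p of up to 0.0581. SPRY4, the lowest of the 10 genes in FPKM at 24 h, had 14.7, 4.34 and 6.64 FPKM under A771726, against 7.35, 6.79 and 9.07 FPKM with DMSO. Replicate 1 of A771726 was above all DMSO libraries and the other two were below them. SPRED1 had 17.7, 17.0 and 13.03 FPKM under A771726 and 15.1, 20.6 and 14.7 FPKM with DMSO, and the groups overlapped. Their log2 fold changes were -0.01 ± 0.36 for SPRY4 and -0.07 ± 0.21 for SPRED1 (limma, adjusted p = 0.989 and 0.840).

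The 2 ETS factors also differed from each other. ETV4 had 54.2, 44.6 and 48.4 FPKM under A771726, against 35.9, 31.1 and 36.5 FPKM with DMSO. All 3 A771726 libraries were above all 3 DMSO libraries, and the log2 fold change was 0.50 ± 0.13 (adjusted p = 0.0209, limma). The ETV4 call was lost on leaving out replicate 1 or 2 of DMSO or replicate 1 or 3 of A771726, with an adjusted p of up to 0.0829. ETV5 had 19.3, 12.04 and 13.3 FPKM under A771726, against 14.2, 14.4 and 15.1 FPKM with DMSO. Its log2 fold change was 0.00 ± 0.17 (adjusted p = 0.998, limma), with the A771726 libraries on both sides of the DMSO range.

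CCND1 fell the most of the 10 genes at 24 h. It had 49.4, 40.6 and 45.6 FPKM under A771726, against 74.5, 66.6 and 77.8 FPKM with DMSO, with no overlap between the groups. The means were 45.2 ± 4.39 and 72.9 ± 5.74 FPKM (SD, n = 3 each), the ratio was 0.624 on the log2(FPKM + 1) scale, and the log2 fold change was -0.68 ± 0.10 (adjusted p = 0.00121, limma). The call was kept whichever of the 12 libraries was left out. In fits with all 24 libraries, or with the 23 that leave out replicate 2 of A771726 at 48 h, no member was called in this comparison. Both fits keep replicate 1 of A771726 at 48 h, which stood apart. Members were called again in the 22 libraries that leave out both libraries that stood apart, with counts given below. With only the groups compared, the calls were those of DUSP4 and CCND1. PHLDA1 had 71.3, 30.1 and 31.5 FPKM under A771726 and 31.4, 34.7 and 32 FPKM with DMSO, so that replicate 1 alone was high. EPHA2 had 43.4, 28.4 and 36.2 FPKM under A771726 and 29.5, 24.2 and 34.8 FPKM with DMSO, with overlapping groups. Their log2 fold changes were 0.31 ± 0.32 for PHLDA1 and 0.27 ± 0.18 for EPHA2 (limma, adjusted p = 0.536 and 0.327).

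The scaling of the libraries bears on these directions. The FPKM sums were lower under A771726 than with DMSO, and rescaling every library to the same sum (TPM) moved the median log2 fold change of all genes from 0.02 to 0.48, with 5435 genes called higher and 211 lower, against 1106 and 891 as deposited. On that scale DUSP6 and SPRY2 had log2 fold changes of 0.08 and 0.16, CCND1 had -0.19, and none of the 3 was called, while DUSP4 at 1.21 and ETV4 at 1.00 were called and EPHA2 at 0.77 became so (limma, adjusted p = 2.87e-04, 5.77e-04 and 0.0146). All 3 genes that fell stayed below the median of all genes on that scale, and DUSP4 and ETV4 stayed above it. Median-of-ratios scaling, which moved the median of all genes to -0.06 and gave 832 genes higher and 1323 lower, kept the calls of DUSP4, DUSP6, SPRY2 and CCND1, with ETV4 at 0.39 (adjusted p = 0.0620).

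**Figure D2:**
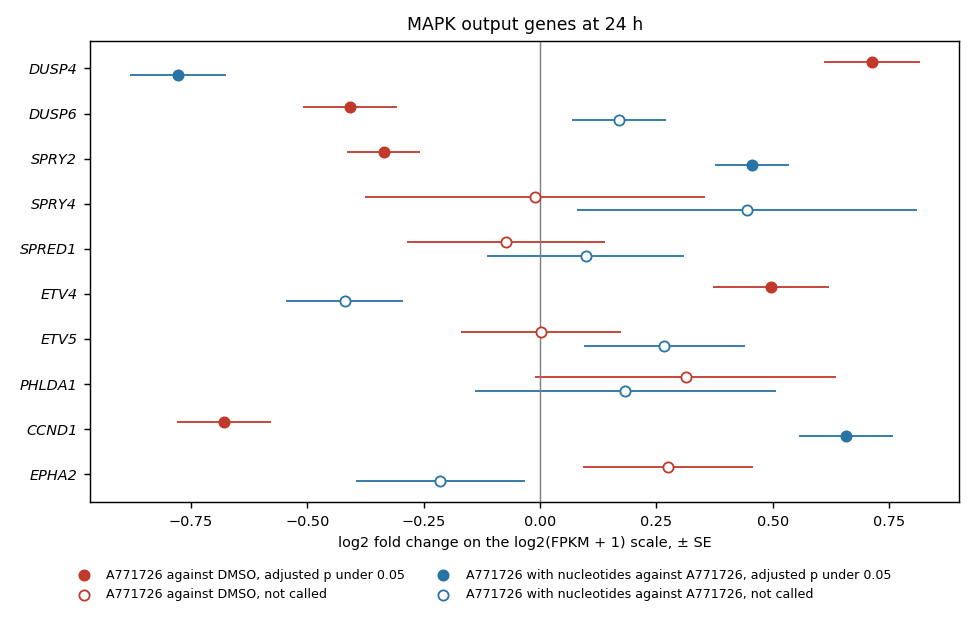
Log2 fold change with its standard error for each of the 10 genes at 24 h, for A771726 against DMSO in red and for A771726 with nucleotides against A771726 in blue; filled points passed limma at an adjusted p under 0.05. DUSP4 and CCND1 have filled points on opposite sides of 0 in the 2 comparisons, SPRY2 likewise, and DUSP6 and ETV4 are filled in red only; under TPM scaling the red values of DUSP6 and SPRY2 would be 0.08 and 0.16.

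The comparison of A771726 with nucleotides against A771726 alone at 24 h asks whether added nucleotides undo the inhibitor's changes. DUSP4 fell, and CCND1 and SPRY2 rose, each against the direction of A771726 alone. DUSP4 had 25.5, 27.1 and 25.3 FPKM with nucleotides added, below all 3 A771726 libraries, a log2 fold change of -0.78 ± 0.10 (adjusted p = 6.84e-04, limma). CCND1 had 71.2, 73.2 and 70.6 FPKM, above all 3 A771726 libraries, a log2 fold change of 0.66 ± 0.10 (adjusted p = 0.00167, limma). SPRY2 had 72.2, 69.3 and 67.2 FPKM, also above them, a log2 fold change of 0.46 ± 0.08 (adjusted p = 0.00345, limma). These 3 calls were kept whichever of the 12 libraries was left out, but all 3 were lost with 24 or with 23 libraries, and those of CCND1 and SPRY2 with only the groups compared. The background was 12.3% of genes called in this comparison, 4% higher and 8.29% lower, and it shares the A771726 libraries with the comparison against DMSO.

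ETV4 and DUSP6 did not pass here. ETV4 had 33.7, 34.0 and 41.8 FPKM with A771726 and nucleotides, below the 3 A771726 libraries. Its log2 fold change was -0.42 ± 0.13, with an adjusted p = 0.0524 in limma, and 0.0110 with the replicate number as a block. DUSP6 had 40.3, 36.6 and 41.4 FPKM, overlapping the A771726 libraries but below all DMSO libraries, with a log2 fold change of 0.17 ± 0.10 against A771726 alone (limma, adjusted p = 0.340). The remaining 5 genes had log2 fold changes from -0.21 for EPHA2 to 0.44 for SPRY4, with adjusted p-values from 0.388 to 0.838 in limma. Under TPM scaling, SPRY2 at 0.21 and CCND1 at 0.41 were no longer called (adjusted p = 0.301 and 0.0752) and ETV4 at -0.67 was (adjusted p = 0.00861), with the median of all genes moved from -0.03 to -0.27 and 224 genes higher and 2520 lower, against 459 and 951 as deposited. Median-of-ratios scaling gave 697 higher and 684 lower.

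Nucleotides by themselves left the 10 genes near their DMSO levels at 24 h. DUSP4 had 27.8, 25.1 and 28.0 FPKM with nucleotides alone, and CCND1 71.9, 67.9 and 75.9 FPKM, both overlapping the DMSO libraries. Log2 fold changes of nucleotides against DMSO ran from -0.03 to 0.09 over the 10 genes, no member was called, and none had an unadjusted p under 0.05. Only 0.00872% of all genes were called, 1 of 11471, with 26 at an unadjusted p under 0.05. For A771726 with nucleotides against DMSO at 24 h, log2 fold changes ran from -0.24 for DUSP6 to 0.50 for PHLDA1, and no member was called by limma. The background was 0.0174% of genes called, 258 genes had an unadjusted p under 0.05, and 1 member, DUSP6, was among them.

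The difference of the A771726 effect with and without nucleotides was also tested directly. DUSP4 differed by -0.77 ± 0.15 on the log2 scale (limma, adjusted p = 0.0151) and CCND1 by 0.68 ± 0.14 (limma, adjusted p = 0.0244), where 4.28% of all genes were called, 1.24% positive and 3.04% negative. SPRY2 at 0.41 ± 0.11 (limma, adjusted p = 0.0768) and ETV4 at -0.39 ± 0.18 (limma, adjusted p = 0.325) did not pass. SPRY2 was called under median-of-ratios scaling, at 0.52 (limma, adjusted p = 0.0274), and also without the filter on low values, without replicate 1 of A771726, with the replicate number as a block and with 22 libraries. The call was lost for DUSP4 in 3 of 12 fits that left out a library, namely replicate 1 of DMSO, of nucleotides, or of A771726 with nucleotides, and for CCND1 in 6 of 12, with adjusted p-values of up to 0.0553 and 0.0799. The CCND1 call was lost without replicate 1 or 3 of DMSO, replicate 1 or 2 of nucleotides, replicate 3 of A771726, or replicate 1 of A771726 with nucleotides. Under TPM scaling DUSP4 was called, and CCND1, at 0.39, was not (adjusted p = 0.298). With 24 or with 23 libraries neither was called.

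At 48 h the A771726 group was dominated by its 2 libraries that stood apart. CCND1 had 16.9, 5.83 and 44.5 FPKM under A771726, against 74.7, 68.1 and 88.9 FPKM with DMSO. EPHA2 had 4.51, 4.49 and 13.3 FPKM, against 31.8, 27.2 and 36.6 FPKM with DMSO. For both genes every A771726 library was below every DMSO library, including replicate 3. ETV5 had 3.83, 2.29 and 10.8 FPKM, against 15.5, 17.1 and 15.9 FPKM with DMSO, again without overlap. ETV4 and SPRY4 also lay below every DMSO library, and the remaining members overlapped. The share of all genes without overlap was not counted.

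These 3 genes were called lower at 48 h: CCND1 at -2.13 ± 0.54, EPHA2 at -2.11 ± 0.39 and ETV5 at -1.58 ± 0.42 (limma, adjusted p = 0.0212, 0.0128 and 0.0232, over 12153 genes). The background was 31.1% of all genes called, 0.749% higher and 30.4% lower, so that 3 of 10 members called lower was near the share of all genes. The median log2 fold change was -1.42 over the 10 genes and -0.86 over all genes. Under median-of-ratios scaling 100 genes were called higher and 176 lower, under TPM scaling 22 and 19, against 91 and 3692 as deposited, and no member was called under either. All 3 calls were also lost on leaving out replicate 1 or replicate 3 of DMSO, and those of CCND1 and ETV5 on leaving out replicate 2 of DMSO or replicate 1 of A771726, with adjusted p-values of up to 0.0827.

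Replicate 3 alone can be set against the controls with the spread of the other groups, on the assumption that this library varies as they do. In that fit CCND1 at -0.77 and EPHA2 at -1.19 were called lower (limma, adjusted p = 0.0121 and 0.0107), ETV5 at -0.54 was not (adjusted p = 0.0859), and the median of all genes was -0.26. EPHA2 at 13.3 FPKM in that library contrasts with 43.4, 28.4 and 36.2 FPKM under A771726 at 24 h. DUSP4 at 44.3 FPKM and DUSP6 at 54.7 FPKM in replicate 3 were above the DMSO libraries, which had 39.9, 39.9 and 40.9 FPKM and 49.4, 45.04 and 46.4 FPKM. Their log2 fold changes were 0.14 and 0.22 (limma, adjusted p = 0.551 and 0.172), against -1.02 and -1.25 with all 3 libraries. SPRY2 had 30.6, 0 and 65.3 FPKM under A771726 and 63.4, 61.1 and 70.3 FPKM with DMSO, and it is listed at 0 in replicate 2, as is SPRY4. In the same replicate 2 PHLDA1 stood at 227.1 FPKM and SPRED1 at 51.9 FPKM, above all other libraries of the series, so the 10 genes did not share a common shift in that library.

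With nucleotides added to A771726 at 48 h, CCND1 had 79.4, 79.0 and 81.8 FPKM and EPHA2 27.9, 27.1 and 28.2 FPKM, above every A771726 library. Both were called higher against A771726 alone, by 2.19 ± 0.54 and 1.93 ± 0.39, and so were ETV5 by 1.57 ± 0.42 and ETV4 by 1.19 ± 0.37 (limma, adjusted p = 0.0195, 0.0139, 0.0232 and 0.0342). The background was 30.9% called, 30.2% higher and 0.708% lower. Under median-of-ratios scaling 191 genes were higher and 99 lower, under TPM scaling 35 and 21, and all 4 members' calls were lost, with adjusted p-values in limma from 0.0779 for EPHA2 to 0.403 for ETV4 and from 0.112 for EPHA2 to 0.275 for ETV4. Against replicate 3 alone, CCND1 at 0.83 and EPHA2 at 1.01 were called (limma, adjusted p = 0.00879 and 0.0201) and ETV4 and ETV5 were not. The ETV4 call was lost in 9 of the 12 fits that left out a library, the calls of CCND1, EPHA2 and ETV5 when any library of A771726 with nucleotides was left out, and that of ETV5 also without replicate 1 of A771726, with adjusted p-values of up to 0.109. No member was called for A771726 with nucleotides against DMSO at 48 h, with log2 fold changes from -0.18 to 0.24, or for nucleotides against DMSO, from -0.02 to 0.18, by limma. The backgrounds were 0.0247% and 0.00823%, with 21 and 15 genes at an unadjusted p under 0.05 and no member among them. This fit includes the 2 libraries that stood apart, and its median SE over all genes was 0.49, against 0.16 at 24 h. Smaller changes could therefore go uncalled. With A771726 and nucleotides, SPRY2 had 76.5, 76.0 and 77.6 FPKM and DUSP6 52.9, 55.2 and 52.9 FPKM, above every DMSO library. The other members overlapped the DMSO libraries. Neither SPRY2, at 0.24 ± 1.17, nor DUSP6, at 0.19 ± 0.50, was called in limma. The share of all genes without overlap was not counted for this or any other comparison.

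Between 24 h and 48 h, DUSP4 rose in the DMSO cells. It had 39.9, 39.9 and 40.9 FPKM at 48 h, against 27.2, 26.1 and 28.3 FPKM at 24 h, a log2 fold change of 0.55 ± 0.10 (adjusted p = 0.00944, limma). The other 9 genes did not pass, and the background was 2.69% of 11392 genes, 1.36% higher and 1.33% lower. Same-numbered DMSO libraries at the 2 times deviated together from their groups, and with the replicate number as a block the adjusted p for DUSP4 was 0.00182, it remained the only member called, and 1362 genes were called against 306. Without replicate 1 of DMSO at 24 h, DUSP4 had an adjusted p of 0.0501. Its call was also lost with all 24 libraries and with only the DMSO groups, where SPRY4 was called. DUSP4 was also higher at 48 h with nucleotides, by 0.68 ± 0.10, and with A771726 and nucleotides, by 0.62 ± 0.10 (limma, adjusted p = 0.00405 and 0.00351, backgrounds 2.16%, with 1.15% higher, and 2.86%, with 2.2% higher). DUSP6 was called only with A771726 and nucleotides, at 52.9, 55.2 and 52.9 FPKM at 48 h, against 40.3, 36.6 and 41.4 FPKM at 24 h, a log2 fold change of 0.44 ± 0.08 (adjusted p = 0.00729, limma), and the difference between the treatments was not tested. SPRY4 had log2 fold changes of 0.90 ± 0.34 with DMSO, 0.99 ± 0.34 with nucleotides and 0.53 ± 0.34 with both agents, and none passed (limma, adjusted p = 0.203, 0.162 and 0.466).

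Across the 8 groups, the order of mean FPKM differed between members. DUSP4 was highest under A771726 at 24 h, at 45.4 ± 5.76 FPKM, next to the 48 h groups with nucleotides, with A771726 and nucleotides, and with DMSO at 44.1 ± 7.28, 40.3 ± 2.21 and 40.2 ± 0.608 FPKM, whose ranges overlapped with it or with each other. The 24 h groups other than A771726 lay between 25.9 ± 0.976 and 27.2 ± 1.07 FPKM, below those 4 without overlap. CCND1 lay between 71.6 ± 1.34 and 80.0 ± 1.502 FPKM in the 6 groups without A771726 alone, with overlapping ranges between neighbours. It was at 45.2 ± 4.39 FPKM under A771726 at 24 h and at 22.4 ± 19.9 FPKM under A771726 at 48 h, below the other 6 groups and overlapping each other. SPRY2 was highest with A771726 and nucleotides at both times, at 76.7 ± 0.830 FPKM at 48 h and 69.6 ± 2.496 FPKM at 24 h. DUSP6 had its highest mean with A771726 and nucleotides at 48 h, at 53.7 ± 1.34 FPKM, and lay between 46.2 ± 2.33 and 47.2 ± 3.14 FPKM in the 4 groups without A771726.

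The members varied unequally between libraries of the same group. Over the 7 groups other than A771726 at 48 h, the median coefficient of variation in FPKM was 3.59% for SPRY2, 5.05% for DUSP6, 5.50% for DUSP4, 7.87% for CCND1, 7.92% for ETV5 and 9.73% for ETV4. It was 15.7% for EPHA2, 18.04% for SPRED1, 19.0% for PHLDA1 and 24.0% for SPRY4, against a median of 12.2% over 7314 genes whose mean was 5 FPKM or more. In all 7 groups EPHA2 was below, and SPRED1 above, the mean of the other 2 libraries in replicate 2 on the log2 scale. In replicate 3 of all 7 the reverse held for both genes. PHLDA1, SPRY4 and ETV5 were all above the rest of their group in replicate 1 of A771726 at 24 h, in replicate 2 of A771726 with nucleotides at 24 h, and in replicate 3 of nucleotides at 48 h.

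In replicate 1 of A771726 at 24 h, SPRY4 was 1.30, PHLDA1 1.19 and ETV5 0.57 above the mean of the other 2 libraries of the group on the log2 scale. In replicate 2 of A771726 with nucleotides at 24 h the values were 0.87, 0.84 and 0.44. In replicate 3 of nucleotides at 48 h they were 1.58, 0.93 and 0.58, where SPRY4 reached 37.3 FPKM, against 12.2 and 11.4 FPKM in the other two. DUSP6 was below its group in all 3 of these libraries, by 0.24, 0.16 and 0.12. Each of the 3 had the lowest FPKM sum of its group, at 459300, 573400 and 597600. Each also had its group's lowest median Spearman correlation with the other libraries, at 0.960, 0.967 and 0.966. The top gene in replicate 1 of A771726 at 24 h was MIR663A, at 9.22% of its FPKM, where the rest of its group had RMRP. Across 10832 genes, the Spearman correlation of a gene's deviation with the length of its longest GENCODE transcript was 0.43, 0.49 and 0.30 in these 3 libraries, as a description over genes of 1 library. It was 0.39 in replicate 2 of DMSO at 48 h, where SPRY4 and ETV5 deviated by 0.10 and 0.12 and PHLDA1 by 0.44. In replicate 1 of nucleotides at 24 h it was 0.34, where SPRY4, PHLDA1 and ETV5 deviated by 0.43, 0.32 and 0.18. In replicate 2 of DMSO at 24 h it was 0.27, where SPRY4 and ETV5 deviated by -0.24 and -0.021 and PHLDA1 by 0.13. The part of transcript length, or of these traits of the libraries, in the members' values was not tested.

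**Figure D3:**
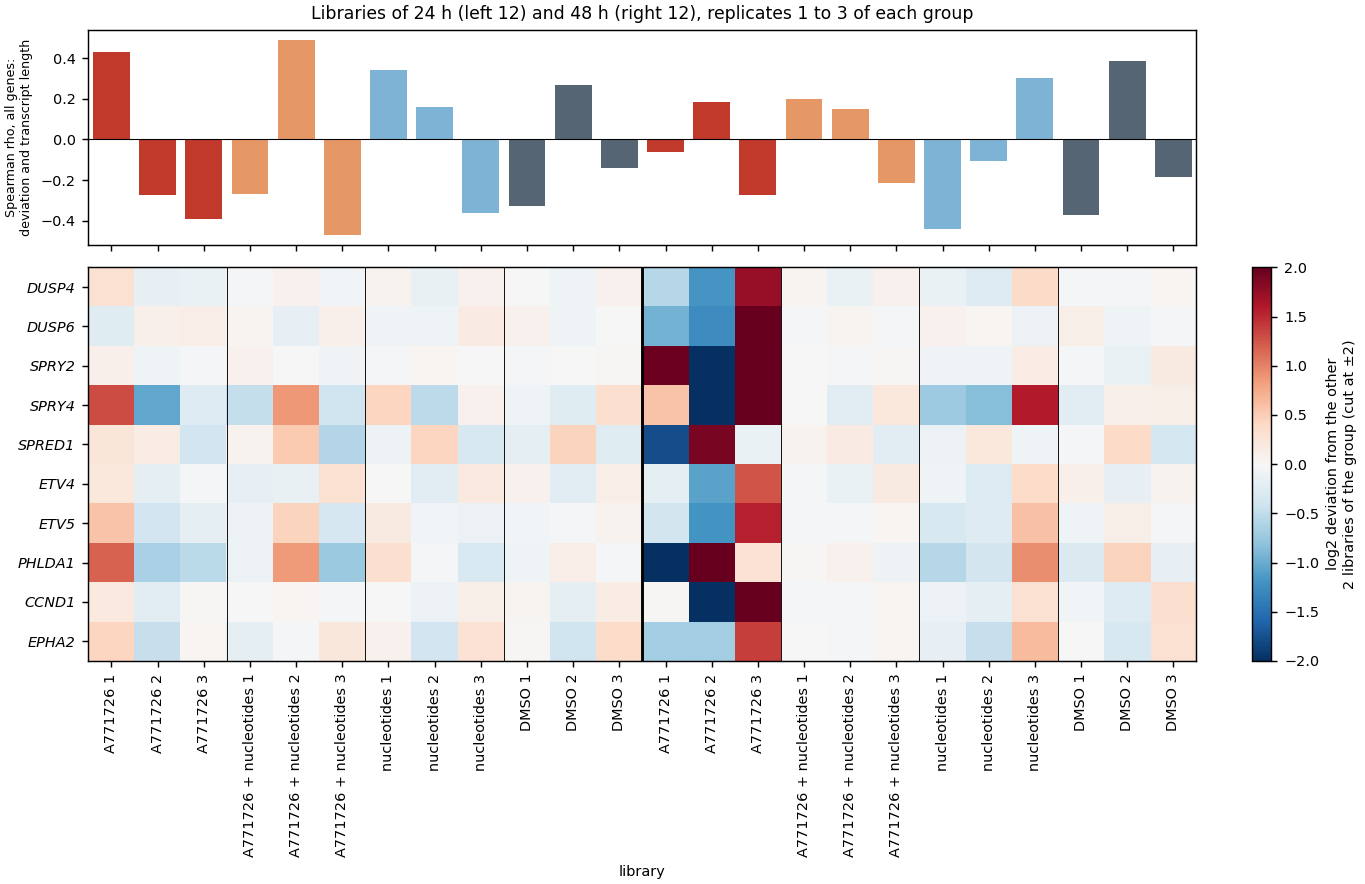
Bottom, for each library (columns) and gene (rows), the log2 deviation from the mean of the other 2 libraries of the same group; top, the Spearman correlation across all tested genes of that deviation with transcript length. SPRY4, PHLDA1 and ETV5 are red together, under a positive bar, in replicate 1 of A771726 and replicate 2 of A771726 with nucleotides at 24 h and in replicate 3 of nucleotides at 48 h. The libraries of A771726 at 48 h have the strongest colours. There replicate 3 has all 3 genes above the mean of the other 2 libraries, with a bar of -0.27, though PHLDA1 is below its level in replicate 2.

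The rest of the pathway was read from lists of genes with a known place in it, chosen with earlier results of these data known. Of 14 tested genes of the RAS-RAF-MEK-ERK cascade, 1 was higher and none lower under A771726 at 24 h, against 9.64% and 7.77% of all genes, with a median log2 fold change of -0.01. The gene that rose was ARAF, a RAF kinase, at 20.9 ± 2.16 FPKM under A771726 and 14.7 ± 1.32 FPKM with DMSO (SD, n = 3 each, limma, adjusted p = 0.0105). BRAF itself had a log2 fold change of 0.39 ± 0.21 and the MEK gene MAP2K1 -0.08 ± 0.11, and neither passed (limma, adjusted p = 0.223 and 0.655). No gene passed among the 10 tested exchange factors, adaptors and GTPase activating proteins of RAS, at a median of 0.01, or among the 13 other ETS factors, at a median of 0.06. Under TPM scaling, which moved the median of all genes to 0.48, 8, 2 and 5 genes of these 3 lists were called higher, and without replicate 2 of A771726 1 ETS factor was.

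Of 13 tested ligands of receptor tyrosine kinases, 7 were higher and 1 lower under A771726 at 24 h, at a median log2 fold change of 0.49 against 0.02 over all genes, where 9.64% were higher and 7.77% lower. Among the 7, FGF1 passed the filter only through its level under A771726, and without it 6 of 12 were higher and 1 lower, at a median of 0.45. TGFA, which encodes a ligand of the EGF receptor, had 131.9, 138.5 and 134.1 FPKM under A771726, against 67.1, 65.9 and 63.9 FPKM with DMSO, a log2 fold change of 1.03 ± 0.08 (adjusted p = 1.96e-05, limma). NRG1, which encodes neuregulin, a ligand of ERBB3, had 5.41, 5.24 and 5.11 FPKM, against 1.29, 1.38 and 0.917 FPKM with DMSO, at 1.52 ± 0.11 (limma, adjusted p = 1.39e-05). HBEGF, another EGF receptor ligand, averaged 4.65 ± 0.431 FPKM under A771726 and 2.32 ± 0.195 FPKM with DMSO (limma, adjusted p = 5.32e-04). FGF1, a fibroblast growth factor, averaged 1.83 FPKM under A771726 and 0.735 FPKM over the other 3 groups of 24 h, and its call is given no weight. The gene that fell was PDGFA, at -0.46 ± 0.11 (limma, adjusted p = 0.0134), named after its values were seen. The PDGFA call was lost without replicate 3 of DMSO and under TPM scaling. AREG, a further EGF receptor ligand, was under the filter and was also named after its values were seen: it had 3.55, 3.06 and 3.20 FPKM under A771726, against 0.110, 0.197 and 0.0394 FPKM with DMSO, with no test.

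With nucleotides added, 6 of the 13 ligands were lower than under A771726 alone and none higher, against 8.29% and 4% of all genes, at a median of -0.52, and 5 of 12 without FGF1, at -0.51. TGFA had 71.1, 71.4 and 63.8 FPKM and NRG1 1.06, 1.09 and 0.990 FPKM, in the range of or near the DMSO libraries. Median-of-ratios scaling left 4 ligands higher and 1 lower in A771726 against DMSO and 4 lower with nucleotides, and FGF1 was not tested there. Under TPM scaling 12 were higher in A771726 against DMSO and 12 lower with nucleotides, FGF1 among them both times. The filter was applied again after scaling, so these 12 need not come from the same 13. Counts without FGF1 were not made on that scale. Leaving out 1 library gave 4 to 8 called in each comparison, and TGFA, NRG1 and HBEGF were called in all 12 such fits. FGF1 was tested in 9 of them and is in those counts where it was called. The 2 comparisons share the A771726 libraries, which favours opposite signs. In the direct test of the difference, with FGF1 among the 13, 3 were called negative and none positive, against 3.04% and 1.24% of all genes.

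Other MAP kinase phosphatases, the family of DUSP4 and DUSP6, had 3 of 8 tested genes higher and none lower under A771726 at 24 h, against 9.64% and 7.77% of all genes, at a median log2 fold change of 0.38. Under TPM scaling 6 were higher, at a median of 0.86. DUSP10, which acts mainly on the stress kinases p38 and JNK, had 13.1, 16.2 and 14.8 FPKM, against 8.39, 8.37 and 7.71 FPKM with DMSO, at 0.77 ± 0.10 (limma, adjusted p = 5.38e-04). DUSP1, an immediate early phosphatase of the same kinases and ERK, averaged 8.24 ± 1.38 and 4.78 ± 0.400 FPKM, and DUSP3 9.03 ± 0.353 and 5.57 ± 0.519 FPKM (limma, adjusted p = 0.00686 and 9.72e-04). DUSP14 at 57.5 ± 16.5 and 42.7 ± 2.35 FPKM and DUSP5 at 9.08 ± 1.45 and 6.72 ± 0.632 FPKM did not pass (limma, adjusted p = 0.238 and 0.132). With nucleotides added, 4 of the 8 were lower than under A771726 alone and none higher, against 8.29% and 4% of all genes, among them DUSP10 at -0.93 ± 0.10 (limma, adjusted p = 1.88e-04). The DUSP5 call among the 4 (limma, adjusted p = 0.0483) was lost in 10 of 12 fits without a library, all but those without replicate 2 of A771726 or replicate 3 of A771726 with nucleotides, and under median-of-ratios scaling (adjusted p = 0.117). Here too the A771726 libraries are shared with the comparison against DMSO. When the difference was tested directly, 3 of the 8 were called negative and none positive, against 3.04% and 1.24% of all genes.

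**Figure D4:**
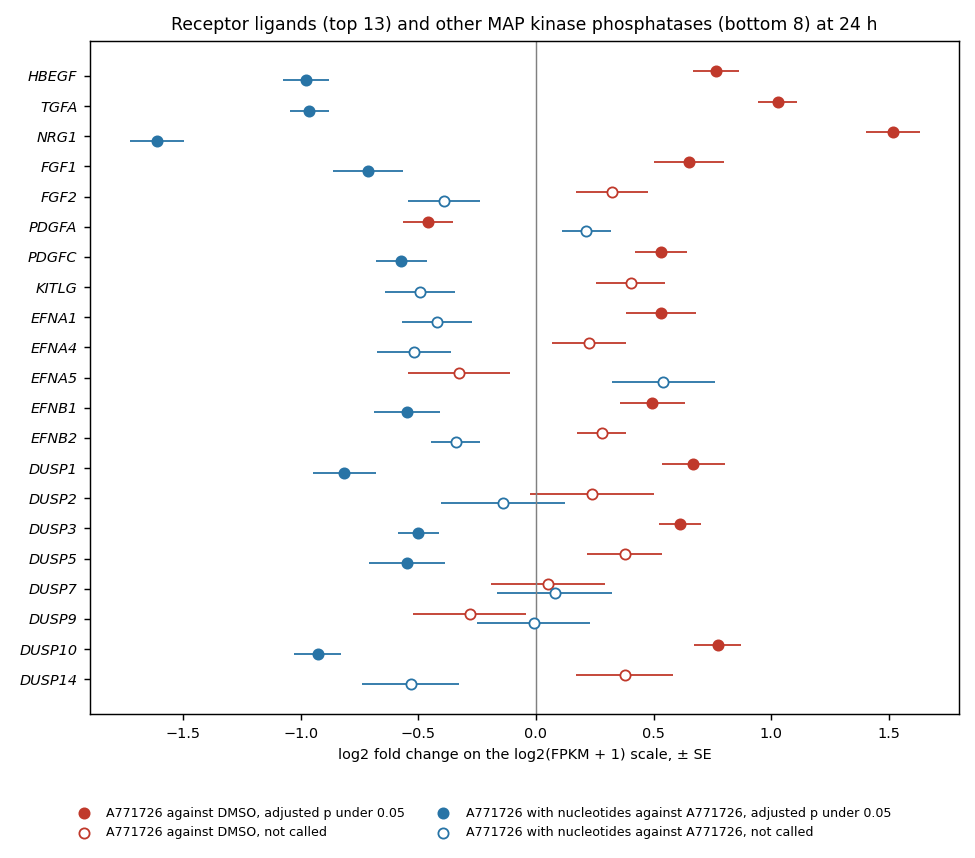
Log2 fold change with its standard error at 24 h for the 13 tested receptor ligands (top) and 8 tested other MAP kinase phosphatases (bottom), for A771726 against DMSO in red and A771726 with nucleotides against A771726 in blue; filled points passed limma at an adjusted p under 0.05. Filled red points lie to the right of 0 except PDGFA, and filled blue points all lie to the left; FGF1 passed the filter only through its level under A771726.

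Of 14 tested receptor tyrosine kinases other than EPHA2, 3 were called higher under A771726 at 24 h and none lower, against 9.64% and 7.77% of all genes, at a median log2 fold change of 0.23. Under TPM scaling 12 were called higher, at a median of 0.73, and without replicate 2 of A771726 the median was 0.36. The filter was applied again in both of these fits, and both include EPHA7. Among the 3 called as deposited, EPHA7 had 1.80 ± 0.327 FPKM under A771726 and 0.922 ± 0.0462 FPKM with DMSO. EPHA7 passed the filter only through its level under A771726, so its call is given no weight, nor is that under TPM scaling, at 0.98. Without it 2 of 13 were higher, at a median of 0.19: the ephrin receptors EPHB2 by 0.56 ± 0.11 and EPHA4 by 0.50 ± 0.10 (limma, adjusted p = 0.00669 and 0.00600). Both had low levels, EPHB2 at 4.43 ± 0.491 FPKM under A771726 and 2.69 ± 0.255 FPKM with DMSO, and EPHA4 at 3.35 ± 0.521 FPKM under A771726 and 2.07 ± 0.0708 FPKM with DMSO. ERBB3, the receptor of neuregulin, and AXL did not pass, at 0.40 ± 0.14 and -0.32 ± 0.20 (limma, adjusted p = 0.0752 and 0.299). EPHB2 and EPHA4 were lower with nucleotides added than under A771726 alone (limma, adjusted p = 0.00349 and 0.00412). This comparison shares the A771726 libraries with that against DMSO. The direct test of the difference called 2 of the 14, EPHA7 counted in the 14, negative and none positive, against 3.04% and 1.24% of all genes.

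Among 15 tested transcripts that ERK is known to induce beyond the 10 members, 2 were higher and 2 lower under A771726 at 24 h, against 9.64% and 7.77% of all genes, at a median log2 fold change of 0.32. The median was 0.068 without replicate 1 of A771726 and 0.77 under TPM scaling. FOS, an immediate early transcription factor, had 6.91, 7.75 and 7.42 FPKM, against 2.68, 2.43 and 2.34 FPKM with DMSO, at 1.26 ± 0.11 (limma, adjusted p = 4.08e-05), and EPHA4 was the other gene higher. MYC at -0.38 ± 0.10 and CCNE2, the cyclin E2 gene, at -1.01 ± 0.19 were lower (limma, adjusted p = 0.0256 and 0.00547), and the MYC call was lost in 4 of 12 fits without a library: any DMSO library, or replicate 1 of A771726. Under TPM scaling MYC had -0.03, and 6 genes were higher and 1 lower. IER3 and FOSL1 did not pass, at 48.0 ± 18.6 and 15.9 ± 13.8 FPKM under A771726 and 71.7 ± 6.76 and 14.6 ± 3.05 FPKM with DMSO.

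Of 12 tested genes that act beside cyclin D1 in G1, 2 were higher and 2 lower under A771726 at 24 h, against 9.64% and 7.77% of all genes, at a median log2 fold change of -0.13. The median was 0.32 under TPM scaling, with 4 higher and 2 lower, and -0.25 without replicate 1 of A771726. CCNE2 averaged 9.25 ± 2.43 FPKM under A771726 and 19.4 ± 3.58 FPKM with DMSO, and the transcription factor E2F2 had 1.27, 0.779 and 1.196 FPKM, against 3.02, 2.80 and 3.20 FPKM with DMSO (limma, adjusted p = 4.26e-04). CDK2, the partner of cyclin E, averaged 75.5 ± 12.2 and 48.4 ± 0.788 FPKM, and RBL2, an RB family repressor, 11.7 ± 0.912 and 7.13 ± 0.482 FPKM (limma, adjusted p = 0.00912 and 0.00380). CDK4 and CDK6, the partners of cyclin D1, did not pass, at -0.32 ± 0.13 and -0.37 ± 0.20 (limma, adjusted p = 0.126 and 0.227). With nucleotides added, all 4 of the called genes were called against their direction under A771726 alone (limma, adjusted p = 0.0164, 1.62e-04, 0.00159 and 0.00478 for CCNE2, E2F2, CDK2 and RBL2). The CCNE2 call in that comparison was lost without replicate 3 of A771726 or replicate 1 or 2 of A771726 with nucleotides, and under TPM scaling, at 0.63 (adjusted p = 0.0531). That comparison shares the A771726 libraries by which the 4 genes were called, which favours opposite signs. The direct test of the difference called 1 of the 12 positive and 1 negative, against 1.24% and 3.04% of all genes.

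The profiles most like those of DUSP6 and CCND1 were sought among 7039 genes whose mean was 5 FPKM or more, by the root mean square difference of mean log2(FPKM + 1), centred on each gene, over the 7 groups other than A771726 at 48 h. For DUSP6 they were TMBIM4, FDPS, MITD1, HDGFRP3 and TTC9C, at differences of 0.04 on the log2 scale each, against a spread of 0.18 in the DUSP6 profile itself. For CCND1 they were ERMARD, CD99L2, SND1, CDC20 and THAP9-AS1, at 0.04 to 0.06, against 0.26 in the CCND1 profile. The median difference over all 7039 genes was 0.20 from DUSP6 and 0.27 from CCND1. As the smallest of so many, the listed differences are small by selection, and the ranking was not tested. CDC20, a mitotic gene, averaged 46.3 ± 5.19 FPKM under A771726 at 24 h, 71.6 ± 10.9 FPKM with A771726 and nucleotides, and 80.2 ± 9.27 FPKM with DMSO.

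The melanoma label was checked against marker genes. Of 10 melanocytic and neural crest markers in the table, 5 had a mean of at least 1 FPKM with DMSO at 24 h, among them SOX10 and S100B at 31.4 ± 5.98 and 26.0 ± 1.25 FPKM, while TYR was listed at 0 and the pigment genes MLANA, DCT and TYRP1 were below 1 FPKM. MITF, the melanocyte lineage factor, was higher under A771726 at 24 h, at 11.4 ± 1.99 FPKM against 5.85 ± 0.668 FPKM with DMSO (limma, adjusted p = 0.00197), and the summed level of the list was 100.9 to 119.6 FPKM against 71.7 to 87.3 FPKM. Of 9 leukocyte markers, CD68 and LYZ were higher under A771726 at 24 h, and the list summed to 24.1 to 37.2 FPKM against 7.54 to 8.64 FPKM, while PTPRC and CD3E did not exceed 0.0102 and 0.0248 FPKM in these 6 libraries. Keratinocyte markers summed to 11.48 to 15.98 FPKM under A771726 and 13.1 to 15.4 FPKM with DMSO, with KRT1, TP63 and IVL listed at 0 in all of them. Fibroblast and endothelial markers summed to 4.71 to 5.36 FPKM and 1.97 to 2.202 FPKM, led by LUM. In bulk RNA, fewer cells of a type and less RNA per cell cannot be told apart, and the part of these markers in the members' values was not tested.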

How the data were processed

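RNA from 24 A375 libraries was sequenced by the authors as rRNA-depleted, paired-end libraries. The deposited table gives FPKM per gene, made by the authors with cutadapt, TopHat2 2.0.11 and Cufflinks 2.2.1 on hg19, per the submitters' processing notes. The annotation, strand setting and filters are not given in these sources. Without counts the depth is unknown, and overlapping or antisense genes cannot be told apart.

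From these values, log2(FPKM + 1) was tested with limma 3.58.1 in R 4.3.3 on genes averaging 1 FPKM or more in the fitted libraries. Each time was fitted with its 12 libraries, and the times were compared in the 18 libraries without the groups of A771726 alone. P-values were adjusted over all genes tested by Benjamini-Hochberg, with calls under 0.05. The code was tested on simulated data. The members and gene lists were chosen with earlier results of these data known. All members are named. From each list up to 4 called genes with the largest change in A771726 against DMSO at 24 h and up to 2 uncalled genes with the highest mean FPKM could be named, and BRAF and MAP2K1 in any case. Some genes of the lists are not reported here.

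Over all genes, deviations of same-numbered libraries within a time correlated between -0.28 and 0.26, so the numbers were not taken to pair them. Some members still followed the number in the 7 groups other than A771726 at 48 h. EPHA2 and ETV4 were below their groups in every replicate 2, and SPRED1 was above. Shared structure by replicate number is therefore not excluded, and results with the number as a block are given below. Between DMSO at 24 h and at 48 h the correlations were 0.13, 0.30 and 0.13, all over 0.1, and the blocked value stands beside that result. No 2 libraries were identical. The filter on low values was applied anew in every fit, after any scaling, so the genes tested can differ between settings. Alternatives covered pseudocount, filter, scaling, libraries fitted, the replicate block and each library left out. Those on leaving out 1 or both libraries of A771726 at 48 h that stood apart, those for the pathway lists, and those for the ETV4 difference between times, were added after the values were seen.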

Additional observations from a re-analysis of the deposited data

Results flagged for a closer look

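The effect of A771726 at 24 h differed between cells with and without nucleotides for 2 members, by limma's test of the difference itself. It was -0.77 ± 0.15 on the log2 scale for DUSP4 (limma, adjusted p = 0.0151), with all 3 libraries of A771726 with nucleotides below all 3 of A771726. It was 0.68 ± 0.14 for CCND1 (limma, adjusted p = 0.0244), with all 3 above. The DUSP4 call was lost without replicate 1 of DMSO, of nucleotides or of A771726 with nucleotides, and the CCND1 call in 6 of 12 fits without a library and under TPM scaling, at 0.39 (limma, adjusted p = 0.298). Neither was called with 24 or with 23 libraries.

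ETV4 was above every DMSO library in all 3 A771726 libraries at 24 h and below every DMSO library in all 3 at 48 h. The log2 change at 48 h minus that at 24 h was -1.55, and this difference was not tested. It was -0.71 without replicates 1 and 2 of A771726 at 48 h, -0.72 under median-of-ratios scaling and -1.96 under TPM scaling. In the 48 h group, ETV4 had 15.98, 10.3 and 32.04 FPKM under A771726, against 39.3, 34.4 and 38.5 FPKM with DMSO, and replicates 1 and 2 are the libraries that stood apart. The fall of ETV4 at 48 h did not pass, with 0.0502 as its adjusted p in limma, and 0.0431 with the replicate number as a block. Its change at that time was -1.05, while the median over all genes was -0.86. With replicate 3 as the only A771726 library, ETV4 changed by -0.22, near the median of all genes given above for that fit. How many of all genes showed the same reversal was not counted.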

How the results depend on the processing

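DUSP4 and CCND1 kept their calls in A771726 against DMSO at 24 h whichever of the 12 libraries was left out, but both were lost with 24 or 23 libraries, and CCND1 under TPM scaling (-0.19; limma, adjusted p = 0.304). The fits with 24 and with 23 libraries keep replicate 1 of A771726 at 48 h, which stood apart. Members were called again with the 22 libraries that leave out both libraries that stood apart. The cause was not tested. Read depth is unknown, so no limit from counting can be given.

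For A771726 against DMSO at 24 h, 3080 genes were called without the filter, 1139 at a mean of at least 5 FPKM, 5646 under TPM scaling, 114 with all 24 libraries, 1283 with 23 libraries and 1065 with only the groups compared. Members called were 3 under TPM scaling, 0 with 24 or 23 libraries, 5 with the 22 libraries that leave out both, and 2 with only the groups compared. For A771726 with nucleotides against A771726 at 24 h the gene counts were 2497, 699, 2744, 72, 897 and 364, in the same order, with 0 members for 24 or 23 libraries and 1 with only the groups compared. For the difference between these effects the counts were 1038, 201, 1226, 9 and 267 for the first 5 settings and 824 with 22 libraries, with 1 member under TPM scaling and 0 with 24 or 23 libraries.

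At 48 h, A771726 against DMSO gave 2123 genes with a pseudocount of 0.1, 276 under median-of-ratios scaling, 41 under TPM scaling, 6915 with all 24 libraries and 9 with only the groups compared, and, in that order from the scaling on, 0, 0, 8 and 0 members. A771726 with nucleotides against A771726 gave 2070, 290, 56, 6903 and 6 genes and 0, 0, 8 and 0 members, with 2 members without both libraries that stood apart. A771726 with nucleotides against DMSO gave 1 gene at 24 h without the filter, with the stricter filter and with 24 libraries, and 5 genes at 48 h with only the groups compared. Nucleotides against DMSO gave 4 genes at 24 h and 4 at 48 h with only the groups compared, and 0 at 48 h with 24 libraries. For 48 h against 24 h in DMSO, 493 genes were called without the filter, 186 with the stricter filter, 43 with only the groups compared, and 0 genes and 0 members with 24 libraries.

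With the replicate number as a block, 3388 genes were called for A771726 against DMSO at 24 h, 2550 for A771726 with nucleotides against A771726, 1 for A771726 with nucleotides against DMSO, 1079 for the difference and 1362 for the times in DMSO. The block added calls for ETV4 in A771726 with nucleotides against A771726 at 24 h (limma, adjusted p = 0.0110) and in A771726 against DMSO at 48 h (0.0431), and for SPRY2 in the difference (0.0247). In these comparisons, and in the comparisons of A771726 with DMSO and with nucleotides added at 48 h, it ended no member's call, and it was not run for the times in nucleotides or in A771726 with nucleotides.

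Leaving out each replicate gave 1057 to 2333 genes and 2 to 5 members for A771726 against DMSO at 24 h, 856 to 1634 genes for A771726 with nucleotides against A771726, 226 to 654 genes and 0 to 3 members for the difference, and 58 to 540 genes and 0 to 2 members for the times in DMSO. At 48 h it gave 12 to 7212 genes and 0 to 8 members for A771726 against DMSO and 18 to 7155 genes and 0 to 8 members for A771726 with nucleotides against A771726. Against DMSO, A771726 with nucleotides ranged from 1 to 4 genes at 24 h and from 3 to 6 at 48 h, and nucleotides from 1 to 2 and from 1 to 3.

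Reversed log2 values were, under TPM scaling, DUSP6 0.084, SPRY2 0.16, SPRY4 0.45 and SPRED1 0.41 for A771726 against DMSO at 24 h, DUSP6 -0.077, SPRED1 -0.14 and PHLDA1 -0.065 with nucleotides added, and DUSP6 -0.13, SPRED1 -0.22, ETV5 -0.079 and PHLDA1 -0.19 for the difference. Under median-of-ratios scaling they were ETV5 -0.10 for A771726 against DMSO at 24 h, PHLDA1 -0.67 with nucleotides added at 48 h, and DUSP6 -0.033 and SPRY2 -0.023 for the times in DMSO. Without both libraries that stood apart, A771726 against DMSO at 48 h gave DUSP4 0.14, DUSP6 0.22 and SPRY2 0.010, and A771726 with nucleotides against A771726 gave DUSP4 -0.14, DUSP6 -0.028 and PHLDA1 -0.14.

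Leaving out 1 replicate also turned uncalled values. The ranges were -0.44 to 0.33 for SPRY4, -0.16 to 0.073 for SPRED1, -0.19 to 0.13 for ETV5 and -0.082 to 0.53 for PHLDA1 in A771726 against DMSO at 24 h, and -0.076 to 0.29 for SPRED1 and -0.10 to 0.58 for PHLDA1 with nucleotides added. At 48 h they were -0.42 to 0.81 for SPRED1 and -1.06 to 1.29 for PHLDA1, and with nucleotides added -0.70 to 0.52 and -1.17 to 1.18. In the difference they were -0.11 to 0.26 for SPRED1 and -0.18 to 0.49 for PHLDA1. For the times in DMSO they were -0.028 to 0.037 for DUSP6, -0.038 to 0.062 for SPRY2, -0.027 to 0.25 for SPRED1, -0.029 to 0.16 for CCND1 and -0.018 to 0.24 for EPHA2.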
